A study of Mus musculus with 8 samples.

Results

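The Hox genes of the HoxA, HoxB, HoxC and HoxD clusters were examined in cultured mouse cardiac fibroblasts. The members were all protein-coding rows of the gene tables whose name was Hoxa to Hoxd followed by a paralogue number, which gave 40 rows of 54532. These rows carried 39 gene names, because Hoxd4 was listed under 2 gene identifiers. The cells were C57BL/6 fibroblasts at passage 2. One group of 4 libraries received a plasmid carrying HA-tagged murine Thbs4 behind a CMV promoter (pAAV.CMV.SV40.THBS4-HA), which encodes thrombospondin-4 (TSP-4), and the other 4 received the plasmid pAAV-CA as the empty control. These are different constructs, so the groups differ in the plasmid as a whole. Both groups were kept for 12 h in standard medium after transfection and for 24 h without serum. Poly(A) RNA was sequenced, and both groups carry the letters A to D, whose meaning the labels do not give. Whether each library is an animal or a culture of its own is not stated, and p-values therefore reflect the scatter among these 8 libraries, which may be technical.

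Hox proteins are homeodomain transcription factors whose genes stand in clusters, and in the embryo the position of a gene in its cluster follows the level of the body axis at which it is switched on. Fibroblasts of adult tissues are known to keep part of this code as a memory of the body region they came from, with trithorax proteins holding Hox genes active and Polycomb proteins holding them silent. The proteins bind DNA together with cofactors of the TALE homeodomain class (Pbx, Meis and Pknox), and retinoic acid switches on the genes at the anterior end of the clusters.

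Thbs4 served as the check of the labels, with 38063, 25754, 36630 and 31675 counts in TSP-4 plasmid libraries A to D and 2, 11, 8 and 3 in the empty plasmid libraries. Total counts per library ran from 17123735 to 22530947. All 12 cardiac fibroblast markers passed the expression filter, led by Col1a1 at 811 ± 94.1 FPKM (SD, n = 8). All 12 macrophage markers passed as well, with Lyz2 at 385 ± 223 FPKM (SD, n = 8). Of the 8 cardiomyocyte markers, Tnnt2 passed, at 1.75 ± 0.267 FPKM (SD, n = 8). In such bulk RNA, fewer cells of a type and less RNA per cell cannot be told apart.

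Hox transcripts were scarce in these cells. Over all members and libraries the table held 2955 counts, of which 83.2% fell on 10 genes. FPKM, the authors' unit scaled to gene length and library size, sets levels of different genes side by side. On this scale 2 of the 40 rows reached a mean of 1, Hoxb4 and Hoxc13, while 14 lay between 0.1 and 1 and 24 lay below 0.1. Of the rows, 15 had a count in 8 of 8 libraries, 22 in 1 to 7 libraries and 3 in none. Those without a count were Hoxb13, Hoxd1 and Hoxd12, and a count of 0 allows up to 3 counts per library, or 0.135 to 0.177 CPM (counts scaled to library size, without gene length), a limit that covers counting error only.

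**Figure D1:**
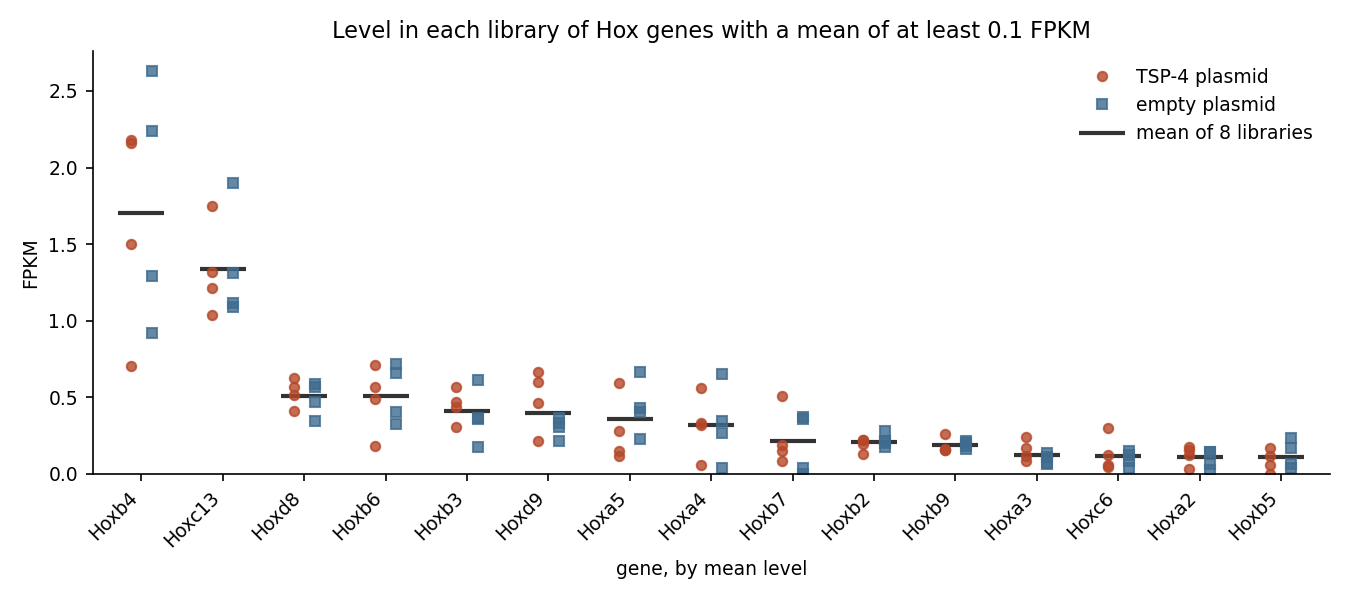
FPKM in each library for 15 Hox genes with a mean of at least 0.1 FPKM, in order of the mean, with circles for the TSP-4 plasmid, squares for the empty plasmid and bars for the mean of 8 libraries. Hoxb4 at a mean of 1.70 and Hoxc13 at 1.34 stand above the others, and the groups overlap in each gene shown.

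HoxB carried the highest summed level in 8 of 8 libraries, between 31.2% and 50.8% of all Hox FPKM. Its sum was 3.44 ± 1.34 FPKM, against 1.77 ± 0.556 for HoxA, 1.66 ± 0.452 for HoxC and 0.954 ± 0.205 for HoxD (SD, n = 8 each). By paralogue number, groups 4 to 8 (central) held the highest sum in 8 of 8 libraries, at 4.17 ± 1.71 FPKM. Groups 9 to 13 (posterior) stood at 2.12 ± 0.488 FPKM and groups 1 to 3 (anterior) at 1.54 ± 0.296 FPKM (SD, n = 8 each). Paralogue group 4 alone reached 2.1 ± 0.91 FPKM and group 13 reached 1.38 ± 0.343 FPKM, whereas groups 10, 11 and 12 stood at 0.0563 ± 0.0314, 0.0109 ± 0.0164 and 0.0520 ± 0.0610 FPKM (SD, n = 8 each).

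The stretches of DNA before the start of 3 members are shown, because Hoxb4 and Hoxa5 differed between letters in the test reported further on and Hoxd8 did not pass it. They are the 250 bases upstream of the RefSeq start, 5′ to 3′ on the strand of the gene, in build GRCm38.p6. Capitals mark matches to the motifs searched.
Hoxb4: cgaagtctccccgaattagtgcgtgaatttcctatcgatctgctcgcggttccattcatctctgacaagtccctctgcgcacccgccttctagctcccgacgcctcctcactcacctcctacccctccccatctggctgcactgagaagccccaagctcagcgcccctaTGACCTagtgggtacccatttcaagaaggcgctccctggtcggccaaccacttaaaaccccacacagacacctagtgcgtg
Hoxa5: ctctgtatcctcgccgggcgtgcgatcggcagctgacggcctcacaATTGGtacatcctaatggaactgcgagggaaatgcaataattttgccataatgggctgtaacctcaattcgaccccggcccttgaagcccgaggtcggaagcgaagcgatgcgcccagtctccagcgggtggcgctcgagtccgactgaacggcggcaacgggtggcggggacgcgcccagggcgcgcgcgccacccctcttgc
Hoxd8: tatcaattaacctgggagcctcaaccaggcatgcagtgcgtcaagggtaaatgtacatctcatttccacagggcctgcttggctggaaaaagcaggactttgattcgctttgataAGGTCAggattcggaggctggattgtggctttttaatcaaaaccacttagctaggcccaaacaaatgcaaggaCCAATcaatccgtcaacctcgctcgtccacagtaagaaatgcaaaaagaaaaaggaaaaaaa
The Hoxb4 stretch lies at chr11:96318017-96318266 on the plus strand, the Hoxa5 stretch at chr6:52204588-52204837 on the minus strand and the Hoxd8 stretch at chr2:74704365-74704614 on the plus strand. Hoxb4 had AGGTCA, the half-site bound by retinoic acid receptors, read on the opposite strand and beginning 81 bases before the start. Hoxd8 had AGGTCA 135 bases and CCAAT 62 bases before the start. Hoxa5 had CCAAT on the opposite strand 204 bases before the start. GC content was 58.0% for Hoxb4, 63.6% for Hoxa5 and 44.4% for Hoxd8. A match of letters is a description of the sequence and not evidence of binding.

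RefSeq promoters matched 22 Hox genes with 24 stretches, among them 5 of the 10 tested members. Both strands were searched. Matches of different motifs may share bases, which they do in none of the 3 printed stretches. CCAAT was present in 14 of 24 Hox stretches and in 33.8% of all 32851 promoters of the same length. The GC box GGGCGG was in 10 of 24 against 32.7%, the TATA box TATAAA in 4 of 24 against 12.4%, AGGTCA in 6 of 24 against 14%, and TGATNNAT, a site for Hox with Pbx proteins, in 4 of 24 against 7.68%. The median GC content was 58.6% over the Hox stretches, with a range of 40.4% to 80.0%, against 52.4% over all. The median number of CpG dinucleotides was 12.5 against 6.

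Hoxb4 is known as a regulator of blood stem cell expansion and of the neck region of the axis (ENSMUSG00000038692, chr11:96318267-96321638 in GRCm38, plus strand). It was the highest member in 6 of 8 libraries, and it made up 43.9% to 53.9% of the HoxB sum. Its level was 0.705, 1.50, 2.16 and 2.18 FPKM in TSP-4 plasmid libraries A to D and 0.917, 1.29, 2.24 and 2.63 FPKM in the empty plasmid libraries. In both groups library A was the lowest and library D the highest, and the groups overlapped over nearly their whole range.

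Hoxc13, known for its part in hair and nail keratin expression, was the highest member in the remaining 2 libraries (ENSMUSG00000001655, chr15:102921103-102928814, plus strand). It stood at 1.21, 1.04, 1.75 and 1.32 FPKM in TSP-4 plasmid libraries A to D and at 1.09, 1.11, 1.31 and 1.90 FPKM in the empty plasmid libraries. With 500 counts in all, it made up 67.7% to 88.5% of the HoxC sum. Its neighbours were near 0: Hoxc12 held 8 counts over the 8 libraries, Hoxc11 held 1 and Hoxc10 held 1. The other 8 HoxC genes together stood at 0.322 ± 0.177 FPKM (SD, n = 8). The table lists no other row that overlaps Hoxc13.

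Among the anterior members, Hoxb3, which acts in the hindbrain and pharyngeal arches, stood at 0.413 ± 0.142 FPKM (SD, n = 8, as for the values that follow). Hoxb2, another hindbrain gene, followed at 0.206 ± 0.0439 FPKM and Hoxa3, required for the thymus and parathyroid glands, at 0.125 ± 0.0582 FPKM. The anterior members of the HoxD cluster, Hoxd1 and Hoxd3, held 0 and 2 counts over the 8 libraries. The central members Hoxd8 at 0.511 ± 0.0975, Hoxb6 at 0.509 ± 0.193 and Hoxa5, a regulator of lung development, at 0.359 ± 0.200 FPKM came after Hoxb4. The posterior member Hoxd9, which patterns the limb and lower spine, reached 0.396 ± 0.168 FPKM. Hoxd13, which shapes the digits, held 11 counts, Hoxa13 held 3, and Hoxd10, Hoxd11 and Hoxd12 held 2, 1 and 0. The ranges of Hoxd8, Hoxb6, Hoxb3 and Hoxd9 over libraries overlapped one another.

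Reads cannot be assigned with certainty where rows overlap: 24 of the 40 rows overlapped another row, 14 of them one on the other strand, and the strand setting of the counting is not given in the sources used here. Of the 10 tested members, 7 overlapped a row on the other strand. Hoxb4, Hoxc13 and Hoxd9 overlapped none. Hoxa3 is annotated from 52169062 to 52213336 on chromosome 6 and spans Hoxa4, Hoxa5 and Hoxa6. Hotairm1, a non-coding RNA of HoxA that is known from myeloid cells and to which the same limit applies, held 320 counts and stood at 2.03 ± 0.650 FPKM (SD, n = 8). This mean was above the 1.70 FPKM of Hoxb4 by less than the spread over libraries of either. By counts, which are not scaled to length, the other non-coding rows of the clusters were lower. Among them, Gm53 in HoxB held 101 counts, Hoxaas2 and Gm15050 in HoxA held 54 and 44, and Hoxd3os1 in HoxD held 20. Hottip and Hoxa11os were at 0, and none of the 7 other rows within HoxC, Hotair among them, had a count.

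No Hox gene passed the test between plasmids. The test was edgeR's quasi-likelihood test on the counts with Benjamini-Hochberg adjustment at 0.05 over the 14723 genes that passed the expression filter. Of the 40 rows, 10 passed the filter, with 5 to 130 counts and a median of 23.5 counts per library, and 30 did not. Among the 10, 0 had a higher and 0 a lower level under the TSP-4 plasmid, where 0.00679% of all genes tested were higher and 0% were lower. At an unadjusted p under 0.05, edgeR listed 0 of the 10, against 1.6% of all genes. This fit left the letters out, and its share of all genes lay below the nominal 5%. The fit with the letters as a block is given further on. DESeq2 and limma voom also called 0 by adjusted p. The smallest adjusted p was 0.999968, and all 10 members overlapped between the groups. The share of all genes that overlapped was not computed, so this overlap is not read as particular to Hox genes. Log2 fold changes, TSP-4 minus empty plasmid, lay above 0 for 4 and below 0 for 6, with a median of -0.08, against -0.00 over all genes tested, of which 49.9% lay above 0.

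**Figure D2:**
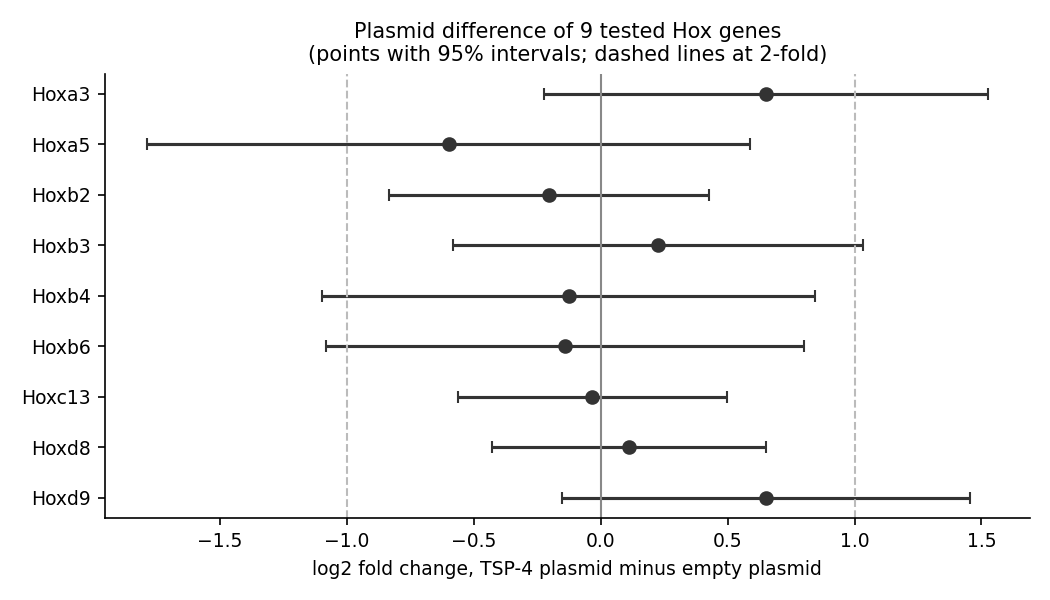
Log2 fold change of 9 of the tested Hox genes, TSP-4 plasmid minus empty plasmid, with 95% intervals for the fit without the letters. The intervals were computed from edgeR's fold change and F statistic and are approximate. The dashed lines mark 2-fold, and every interval crosses 0. The intervals of Hoxb2, Hoxc13 and Hoxd8 lie inside 2-fold.

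The precision differed between members. The intervals are from the fit with the plasmid as the single term, which leaves the spread over letters in them. Hoxc13 averaged 3.28 ± 0.746 CPM in the TSP-4 libraries against 3.35 ± 0.931 CPM in the control libraries (SD, n = 4 each). Its log2 fold change was -0.03, with 95% bounds of -0.56 and 0.50. For Hoxd8 the change was 0.11 with an interval from -0.43 to 0.65. These intervals and that of Hoxb2 lay within 2-fold. For Hoxb4 the levels were 4.21 ± 1.80 CPM and 4.57 ± 2.07 CPM (SD, n = 4 each), and the interval from -1.10 to 0.84 reached beyond 2-fold. Its unadjusted edgeR p was 0.774 in this fit. With the letters as a block, the Hoxb4 log2 fold change was -0.12 and the unadjusted edgeR p 0.412. No interval was computed for the block fit. Hoxa5 had the widest interval, from -1.79 to 0.59, around -0.60.

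Hoxd9 and Hoxa3 had the smallest p-values between plasmids. In TSP-4 plasmid libraries A to D, Hoxd9 stood at 0.993, 0.456, 1.42 and 1.29 CPM. In the empty plasmid libraries it stood at 0.658, 0.471, 0.713 and 0.782 CPM. The TSP-4 value was the higher one in 3 of 4 letters, and the groups overlapped through library B. Its log2 fold change was 0.65 (SE 0.36, 95% interval -0.15 to 1.45) with an unadjusted edgeR p of 0.101. Hoxa3 stood at 0.722, 0.513, 1.00 and 1.46 CPM in TSP-4 plasmid libraries A to D, against 0.423, 0.413, 0.662 and 0.834 CPM in the control libraries. It was higher in 4 of 4 letters, while the groups still overlapped, with a log2 fold change of 0.65 (SE 0.39, 95% interval -0.22 to 1.52) and an unadjusted edgeR p of 0.126. With the letters as a block, edgeR gave unadjusted p-values of 0.0411 for Hoxa3 and 0.0416 for Hoxd9, so 2 of 10 lay under 0.05, where 8.12% of all genes did, and the smallest adjusted p of a member was 0.582. Hoxa5 was lower with the TSP-4 plasmid in 4 of 4 letters, and its unadjusted p with the block was 0.0795.

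The 30 members that did not pass the filter held 257 counts in the TSP-4 libraries and 240 in the control libraries. Hoxa4, with 77 counts, was the most abundant of them. In a fit without the filter, 37 members entered, 0 were called by adjusted p, and the smallest unadjusted edgeR p was 0.0653.

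The summed level of all Hox genes spread more widely over the letters than between the plasmids of a letter. Over all members, TSP-4 plasmid libraries A to D stood at 5.16, 6.55, 9.13 and 10.7 FPKM. The empty plasmid libraries stood at 5.41, 5.83, 9.16 and 10.6 FPKM. Both libraries of letter D were thus above both of letter C, and both of C above those of A and B, while the ratio of the plasmids within a letter lay between 0.952 and 1.12. The mean of letter D was 2.02 times that of letter A. HoxB showed the widest range of the 4 clusters, 2.75-fold from letter A to letter D, and HoxD the narrowest, 1.46-fold from B to D. For HoxD the plasmids differed more than this within letter A, where the TSP-4 library held 1.68 times the level of the empty plasmid library. These sums are descriptions and were not tested.

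**Figure D3:**
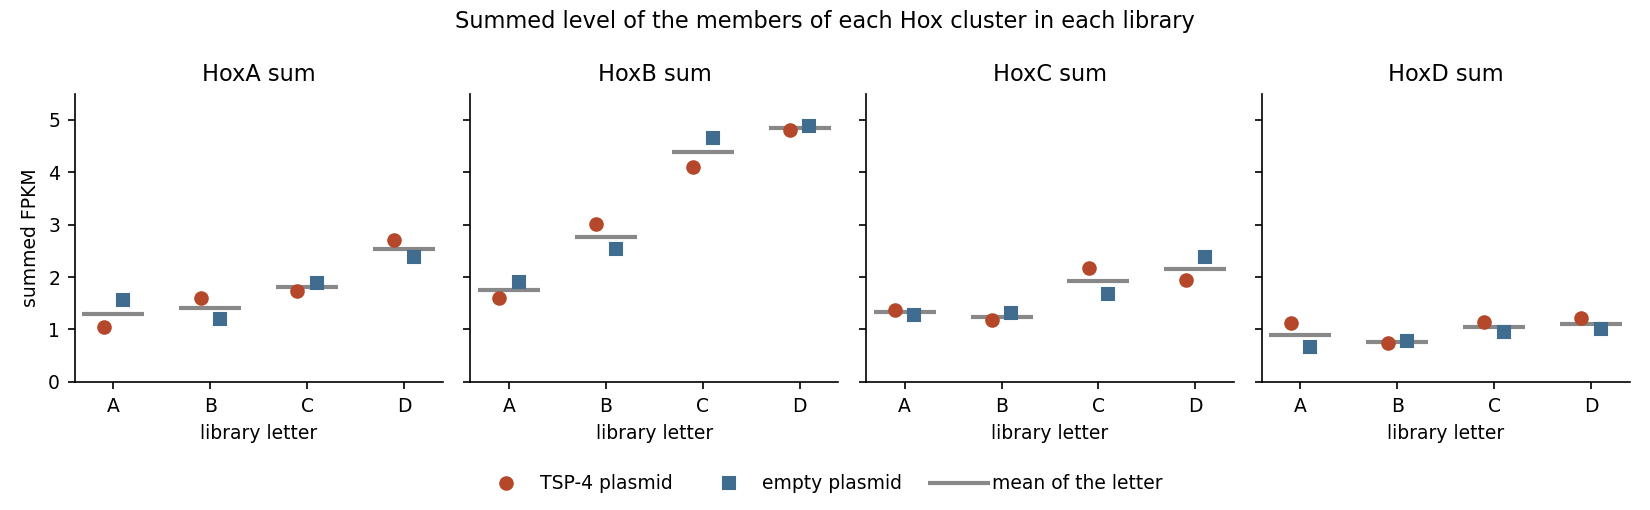
Summed FPKM of the members of each Hox cluster by library letter, with circles for the TSP-4 plasmid, squares for the empty plasmid and bars for the mean of a letter. HoxB runs from a mean of 1.76 in letter A to 4.84 in letter D, and HoxD stays between 0.761 and 1.11.

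A test of the 3 letter terms, with the plasmid in the model, called Hoxb4 and Hoxa5, 2 of the 10 tested members, by edgeR's adjusted p under 0.05. Of all genes tested, 28.1% were called in that comparison, so the share of members was not above the background. In simulated libraries this test made more false calls than its nominal rate, which bears on the calls of members and of all genes. Whether the excess differs with the count level of a gene was not tested. Hoxb4 had 40 and 50 counts in the letter A libraries, 68 and 57 in B, 94 and 114 in C, and 100 and 130 in D (TSP-4 and empty plasmid in turn). Its letter means were 2.08, 3.62, 5.68 and 6.20 CPM for A, B, C and D, a 2.98-fold range. The A, B and C libraries did not overlap one another, while C and D did. The adjusted p was 0.000245, and it stayed under 0.05 in 17 of 17 alternatives, the highest being 0.0185 without letter A.

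Hoxa5 had 5 and 9 counts in the letter A libraries, 5 and 13 in B, 9 and 16 in C, and 20 and 24 in D (TSP-4 and empty plasmid in turn). Its letter means were 0.324, 0.526, 0.673 and 1.19 CPM, a 3.66-fold range, with both D libraries above the other 6. The adjusted p was 0.0320. The call was not stable: it was kept in 7 of the 15 alternatives that gave Hoxa5 an adjusted p, with values from 0.0187 to 0.241. DESeq2 gave it no adjusted p, and without letter D it did not pass the filter. The adjusted p was 0.125 without letter A and 0.0555 with the letter alone in the model. The adjusted p was 0.0792 without TSP-4 plasmid library A, 0.0637 without C and 0.241 without D. Without empty plasmid library A it was 0.0732, without C 0.0626 and without D 0.0749.

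**Figure D4:**
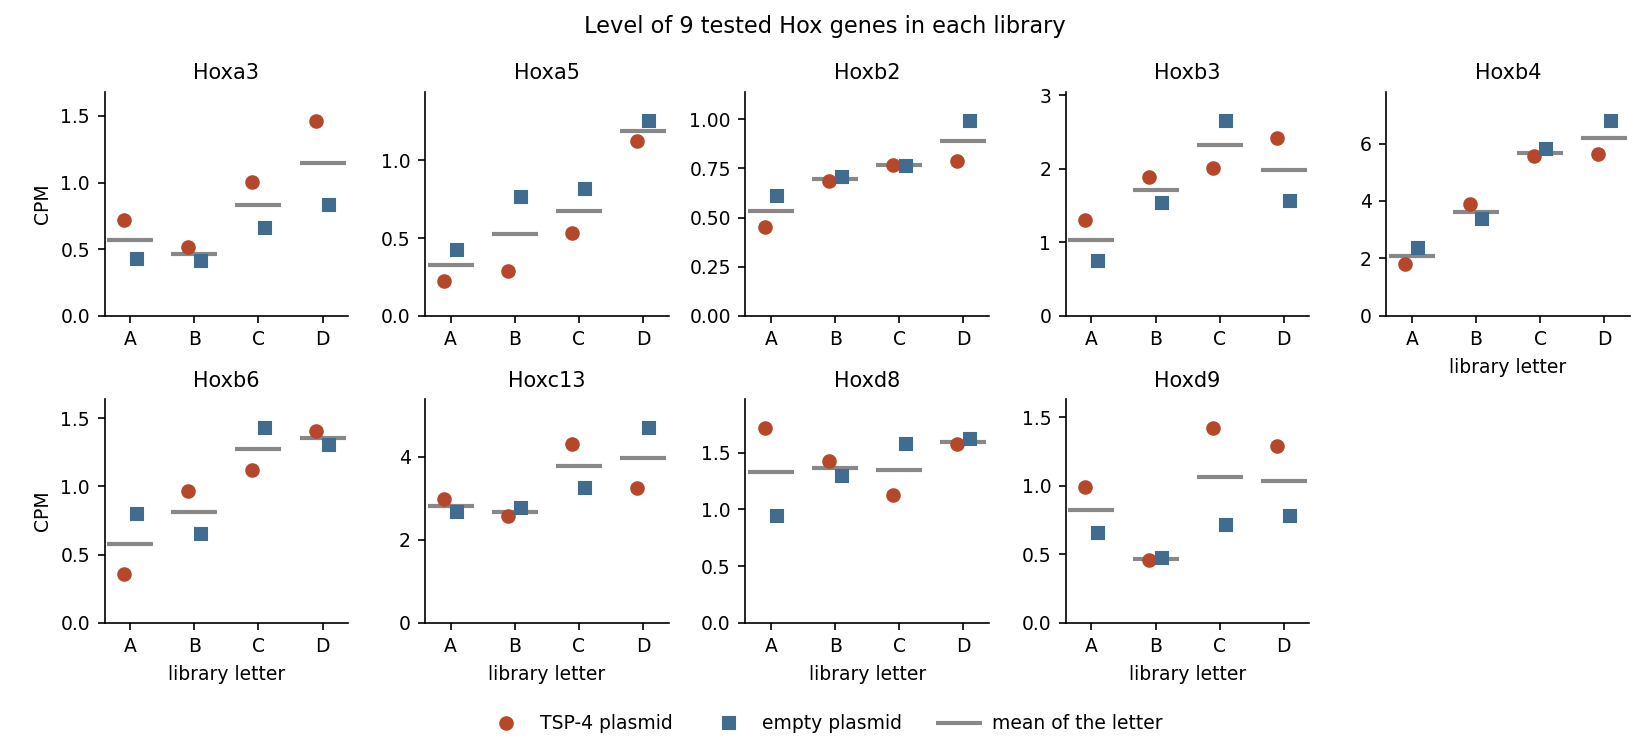
CPM of 9 tested Hox genes by library letter, with circles for the TSP-4 plasmid, squares for the empty plasmid and bars for the mean of a letter. Each panel has its own axis from 0. The Hoxb4 pairs are lowest in letter A and highest in letter D with little distance between plasmids, while the Hoxd8 pair differs most within letter A.

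The other tested members were not called, but their letter means, too, were lowest in A or B and highest in C or D. Of the 10, 7 were highest in letter D and 3 in letter C, and 6 were lowest in letter A and 4 in letter B. Over all genes tested, 50.6% were highest in C or D and 53.0% lowest in A or B. In both groups D was above A for 8 of 10 members, against 35.4% of all genes. Hoxb3, at letter means of 1.03, 1.71, 2.33 and 1.99 CPM, had an adjusted p of 0.0681, and Hoxd8, at 1.33, 1.36, 1.35 and 1.60 CPM, one of 0.905. The members share libraries and depth, so these counts are not independent of one another. The letters set against each other are also those at which these same members were lowest and highest. The excess over all genes is therefore a description and not a test.

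Low-count members also held most of their counts in letters C and D. The 30 members outside the filter held 85, 77, 139 and 196 counts in letters A, B, C and D. In the fit without the filter, edgeR called 6 of 37 members over the letters, where 16.7% of all genes were called. The share of members was thus not above the background here either. Besides Hoxb4, Hoxb3 and Hoxa5 the called members were Hoxa4, Hoxb7 and Hoxb8. Hoxb7 had 3 and 0 counts in the letter A libraries, 4 and 1 in B, 5 and 11 in C, and 14 and 11 in D, with an adjusted p of 0.00441. Hoxb8 had 2 and 0 counts in A, 1 and 1 in B, 7 and 3 in C, and 11 and 9 in D, with an adjusted p of 0.0104. Hoxa4 had 2 and 9 counts in A, 9 and 1 in B, 9 and 11 in C, and 16 and 20 in D, with an adjusted p of 0.0203. These edgeR values are not comparable with those of the filtered fit. On the same counts, the adjusted p of Hoxb4 was 5.24e-11 without the filter and 0.000245 with it. The calls at such low counts are therefore given as a description.

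Markers of other cell types were compared over the letters in the same test, where 28.1% of all genes were called. The summed level of the 12 macrophage markers was 334, 935, 1638 and 727 CPM in letters A to D, and 11 of the 12 were called over the letters. Between plasmids the same sum ranged from 318 to 1812 CPM in TSP-4 libraries and from 349 to 1463 CPM in control libraries, and none of these markers was at 0. The 12 cardiac fibroblast markers summed to 22606, 23412, 20445 and 15882 CPM in letters A to D, with 9 called, so letter D, where Hox levels were highest, was lowest in them. The 8 epicardial and mesothelial markers summed to 682, 337, 396 and 509 CPM, with 5 of the 7 tested called. None of these 3 marker lists was highest in letter D. Their part in the Hox differences was not tested. Endothelial markers were called in 5 of 10, pericyte and smooth muscle markers in 1 of 6, Schwann cell markers in 1 of 2, and the single cardiomyocyte marker tested, Tnnt2, was called.

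Among the cofactors of Hox proteins, Pbx4 had the lowest mean, 0.956 ± 0.0672 FPKM (SD, n = 8), which lay below Hoxb4 and Hoxc13 and above the mean of each other Hox row. All 9 TALE genes passed the filter, 0 were called between plasmids, and 5 of 9 lay above 0 with a median log2 fold change of 0.02. Meis3 stood at 5.64 ± 0.335 FPKM with the TSP-4 plasmid and 6.52 ± 0.234 FPKM with the empty plasmid (SD, n = 4 each). It had a log2 fold change of -0.21 (95% interval -0.37 to -0.05) with an unadjusted edgeR p of 0.0136, which did not pass adjustment. Pknox2 stood at 1.88 ± 0.408 FPKM over all libraries (SD, n = 8). Over the letters 2 of 9 were called, no larger a share than the 28.1% of all genes. Meis2, at 3.90, 3.07, 2.94 and 2.77 FPKM in letters A to D, was highest in letter A, and Meis1 stood at 1.15, 1.43, 1.09 and 1.08 FPKM.

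Chromatin regulators of the clusters showed no call between plasmids. All 26 Polycomb genes and all 14 genes of trithorax, MLL and H3K27 demethylase complexes passed the filter. Their median log2 fold changes were -0.02 and 0.00, with 11 of 26 and 8 of 14 above 0. Ezh2, the methyltransferase that places the Polycomb mark, stood at 3.16 ± 0.281 FPKM with the TSP-4 plasmid and 3.59 ± 0.225 FPKM with the empty plasmid (SD, n = 4 each). Its unadjusted edgeR p was 0.0460, which did not pass adjustment. Of the 26 Polycomb genes, 1 had an unadjusted edgeR p under 0.05, where 1.6% of all genes did. Over the letters, 4 of 26 Polycomb genes and 2 of 14 of the activating list were called, against 28.1% of all genes. Among these were Cbx6, at 7.41, 9.19, 7.84 and 8.28 FPKM in letters A to D, and Kmt2a, the MLL methyltransferase, at 8.24, 9.03, 9.25 and 8.04 FPKM.

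Of 19 genes of the retinoic acid pathway 16 passed the filter, and 0 were called between plasmids, with a median log2 fold change of 0.02. Over the letters 8 of the 16 were called, against 28.1% of all genes. Aldh1a1, a retinoic acid synthesizing dehydrogenase, stood at 202, 217, 169 and 140 FPKM in letters A to D. Cyp26b1, which degrades retinoic acid, stood at 7.72, 12.6, 10.9 and 10.1 FPKM. Crabp1, a binding protein for retinoic acid, was at 2.92 ± 0.987 FPKM with the TSP-4 plasmid and 4.31 ± 1.71 FPKM with the empty plasmid (SD, n = 4 each), and its unadjusted edgeR p was 0.114.

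Other transcription factors of regional identity ranged from 0 to levels above the summed Hox level. Of 42 genes on this list 27 passed the filter and 0 were called between plasmids, with 15 of 27 above 0 and a median log2 fold change of 0.04. The heart factors Tbx20 at 57.8 ± 11.5, Gata4 at 53.0 ± 5.17 and Tbx18, a factor of the epicardium, at 18.2 ± 5.44 FPKM, as well as the mesenchymal factor Prrx1 at 20.7 ± 5.01 FPKM, each exceeded the summed Hox level of 7.82 ± 2.33 FPKM (SD, n = 8 each). Cdx1, Cdx2 and Cdx4, which switch on posterior Hox genes in the embryo, as well as the head factor Otx2 and the limb factor Dlx6, were at 0 in 8 of 8 libraries. Over the letters 12 of 27 were called, against 28.1% of all genes. Tbx20 stood at 69.9, 65.5, 51.1 and 44.7 FPKM in letters A to D, and so ran opposite to Hoxb4, while Prrx1 stood at 15.0, 26.1, 24.5 and 17.4 FPKM.

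Of the genes that flank the clusters, none that passed the filter was called between plasmids. Of 18 entries for neighbours and non-coding transcripts, 17 were found in the table and 5 passed the filter, with 2 of 5 above 0. Mtx2 next to HoxD stood at 11.5 ± 0.511 FPKM and Cbx5 near HoxC at 10.7 ± 0.777 FPKM (SD, n = 8 each). Evx1 and Evx2, homeobox genes at the posterior ends of HoxA and HoxD, were at 0. Over the letters 1 of 5 was called, no larger a share than the 28.1% of all genes. It was Skap2, which lies beside the anterior end of HoxA, at 2.81, 3.03, 3.67 and 3.05 FPKM in letters A to D.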

How the data were processed

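For 8 libraries, the authors deposited read counts per gene and FPKM values, which were taken unchanged. The submitters' processing notes list TopHat2 2.0, HTSeq 0.6.1, Cufflinks 2.1.1 and CASAVA, and the builds GRCm38.p6 and mm10, without the step each served. Strand setting, annotation release and handling of multiply mapped reads were not given in the sources used here. Within a library, each deposited FPKM value equals the count over gene length times 1 constant.

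Counts were tested with edgeR 4.0.16 (TMM, default expression filter with a minimum count of 10, robust quasi-likelihood) in R 4.3.3, with the plasmid as the single term; CPM values use the same TMM factors. A second model added the letters. Alternatives used RLE factors, DESeq2 1.42.0, limma 3.58.1 voom, no filter, a letter block and each library left out. On simulated data the letter test made false calls above its nominal rate. For each letter the deviations from the group means correlated across genes with r from 0.508 to 0.651 (other pairs -0.57 to 0.323). Each same-letter value was above the limit of 0.1 for pairing, and this pairing comes from the data, not the labels. No libraries were duplicates, the smallest mean chi-square per gene being 4.54.

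Members and gene lists were chosen with earlier results of these data known. Besides all Hox rows and Thbs4, the genes to name were, per list, up to 3 with the smallest plasmid p, 2 with the smallest letter p and 2 with the highest mean CPM. The text prints a part of them, and Hotair, Hottip, Hoxa11os, the Evx and Cdx genes, Otx2, Dlx6 and Pbx4 were named after their values were seen, as were Gm53 and other rows within the clusters. Correlations between members, planned as a description, were left out because counts were low and libraries pair by letter. Protein sequences were not used here, and 2 genes are counted in the totals but not reported here.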

Additional observations from a re-analysis of the deposited data

How the results depend on the processing

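The counts of Hox genes called between plasmids stayed at 0 in both directions under every alternative run (RLE factors, DESeq2, limma voom, no filter, the replicate block, and each library left out). The median log2 fold change ran from -0.17 to 0.15 with a library left out, with 0.09 without TSP-4 plasmid library A and 0.15 without empty plasmid library D, and it was 0.04 with no low-count filter. Of the members reported, the sign of 5 turned with 1 library left out, with ranges from -0.020 to 0.57 for Hoxb3, -0.35 to 0.14 for Hoxb4, -0.38 to 0.16 for Hoxb6, -0.18 to 0.17 for Hoxc13 and -0.034 to 0.22 for Hoxd8, none of them past the threshold. With the replicate block the smallest adjusted p of a member was 0.582, and the block changed no call. The 2 members called over the letters became 1 with DESeq2's likelihood ratio test, where Hoxa5 had no adjusted p, 6 with no low-count filter and 1 with the letter alone in the model. With 1 library left out they ran from 1 to 4, with 4 of 12 tested members without TSP-4 plasmid library B. They were 1 of 10 without letter A, 4 of 12 without letter B and 1 of 9 without letter D. The share of all genes called in the fits with a library or letter left out is not given here. These numbers are therefore not read as a change particular to Hox genes. The 2 members at a mean of 1 FPKM became 1 where each library had to reach 1 FPKM. The causes of these shifts were not tested, other than the number of members entering the fits without a filter (37). Counts of 5 to 130 per library limit what the plasmid comparison can show for single members. So does the spread over letters, which the fit with the plasmid alone leaves in. Precision did not follow the counts alone. In that fit the SE of the log2 fold change was 0.43 for Hoxb4 with 653 counts and 0.24 for Hoxd8 with 214.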
